A study of Mus musculus with 12 samples.

Results

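Fibronectin, periostin, SPARC, the tenascins and the thrombospondins are secreted proteins that sit among or on the collagen fibres of a tissue and connect them to cells. The family was taken as 10 named genes, Fn1, Postn, Sparc, Tnc, Tnxb, Thbs1, Thbs2, Thbs3, Thbs4 and Comp, and all 10 were found once each among the 40760 genes counted. They were chosen by name, with no measured value in the rule, but with earlier results of these data known. RNA was sequenced from lung cells of male mice sorted as Cd140a+ (Pdgfra+) mesenchymal cells, in 12 libraries that form 4 groups of 3. WT vehicle and WT bleo came from wild-type mice given vehicle or bleomycin (bleo), a drug that injures the lung and is used to model fibrosis, and Pear1-/- vehicle and Pear1-/- bleo came from Pear1 knockout mice given the same. Per the study's methods the knockout allele is a gene-trap cassette, described apart from its mesenchyme-specific and platelet-specific knockouts. Loss of PEAR1, a transmembrane receptor with EGF-like repeats, would thus not be limited to fibroblasts. The methods also give a C57BL/6 background unless otherwise stated, and bleo as an intratracheal aerosol. The interval between bleo and sorting and the number of mice behind a library are not given in the sources used here.

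In wound repair, fibronectin is laid down early and is bound by integrins on the cell surface. Tenascin-C and periostin are scarce in most resting adult tissues and are made by activated fibroblasts, whereas tenascin-X is a constitutive protein of loose connective tissue that organises collagen fibrils. SPARC binds collagen and influences its assembly. Thrombospondin-1 and thrombospondin-2 form trimers and thrombospondin-3, thrombospondin-4 and COMP form pentamers, and thrombospondin-1 is known to activate latent TGFβ.

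Each library held between 6702948 and 10447101 counts. Mitochondrial genes took 2.11% to 2.29% of them in Pear1-/- bleo, 3.13% to 3.28% in WT bleo and 2.96% to 3.70% in the vehicle groups, and the bearing of this on the results was not tested. Levels are given as normalized counts, which are counts that the authors scaled for library size. Log2 fold changes, with their SE, and adjusted p were computed by edgeR's quasi-likelihood test in 1 fit of the 12 libraries, with Benjamini-Hochberg adjustment over 17418 genes, and all 10 members passed its filter on low counts. A gene was called when its adjusted p was under 0.05 and its fold change above 2. Nothing in the labels says that the 3 libraries of a group came from separate animals, so p measures only the spread between these libraries, which may be technical.

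The knockout label was not visible in the counts of Pear1 itself. In vehicle, the mean of Pear1 was 547 ± 28.8 for WT and 519.7 ± 24.0 for Pear1-/- libraries (normalized counts, SD, n = 3). In bleo it was 254 ± 14.0 for WT and 357 ± 14.2 for Pear1-/-, and higher in the latter (log2 fold change 0.48, SE 0.08, adjusted p = 0.00012). Per the paper's methods the cassette traps the Pear1 transcript and truncates it. The counts are per gene and do not show where along Pear1 the reads lie. Why Pear1 was not lower was therefore not tested, and the labels could not be checked from it. Every genotype below is that of the library labelled so. WT vehicle replicate 2 stood apart from its group. The chi-square of its counts against WT vehicle replicates 1 and 3 was 21.2 and 21.8 per degree of freedom, where 1 is counting noise alone, while those replicates differed by 1.58. Against the 3 Pear1-/- vehicle libraries it was between 1.73 and 2.67. By another measure it was replicates 1 and 3 that differed from the rest: they had 25994 and 26625 genes above 3 counts at the lowest depths of all, where replicate 2 had 20643 and the other libraries between 17092 and 20792. Members' values and list counts that rest on WT vehicle are therefore given with and without replicate 2, and the members' calls also with replicate 2 as the only WT vehicle library, a fit in which that lone library is assumed to vary like the other groups. On the same chi-square, pairs within WT bleo were at 1.35 to 1.49, within Pear1-/- bleo at 1.37 to 1.47 and within Pear1-/- vehicle at 1.44 to 4.82. The libraries of each bleo group thus differed by little more than counting noise, and the small p of the bleo groups need not hold for other animals.

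Marker genes of cell types also differed between groups. The summed level of 12 fibroblast markers was 13990 to 14411 CPM (a gene's reads scaled to equal library totals) for WT vehicle and 13844 to 14066 for Pear1-/- vehicle. It was 5729 to 5792 for WT bleo and 10565 to 10677 for Pear1-/- bleo. Most of the gap between the bleo groups was Col3a1, a collagen gene, and without it the other 11 markers summed to between 2140 and 2161 CPM for WT bleo and between 2520 and 2563 for Pear1-/- bleo, against 9523 to 10065 in vehicle. Of the 12 markers, 2 were called higher in Pear1-/- bleo than in WT bleo, 1 was called lower and 9 were not called (median log2 fold change 0.13), where 6.26% of all genes were called higher and 8.76% lower. Col14a1 was at 1314 ± 51.4 normalized counts in WT bleo and 628 ± 29.4 in Pear1-/- bleo, and Pdgfrb was at 1062 ± 37.8 and 2304 ± 64.2. The summed level of 18 leukocyte markers was 3311 to 4399 CPM for WT vehicle and 4322 to 4558 for Pear1-/- vehicle, and 15774 to 15949 for WT bleo and 7580 to 7719 for Pear1-/- bleo. Without Lyz2 these bleo sums were 7443 to 7494 and 3812 to 3838 CPM. In WT bleo 11 of the 18 were called higher and 2 lower than in WT vehicle, against 10.5% and 23.5% of all genes. Without WT vehicle replicate 2 it was 12 and 2, against 11.4% and 33.7%. In Pear1-/- bleo 0 were called higher and 6 lower than in WT bleo (6.26% and 8.76% of all genes). Chil3 (3147 ± 139 in WT bleo, 5154 ± 62.4 in Pear1-/- bleo) and S100a8 (435 ± 38.4, 821 ± 39.4) went the other way. Epithelial markers (7 genes) summed to between 4773 and 6515 CPM in vehicle, to between 1653 and 1683 in WT bleo and to between 734 and 744 in Pear1-/- bleo. Platelet markers (6 genes), of interest because platelets carry thrombospondin-1, summed to between 35.4 and 39.2 CPM in vehicle. In bleo they summed to between 75.7 and 79.7 for WT and between 41.2 and 42.6 for Pear1-/-. Pf4 alone carried that rise, and without it the other 5 summed to between 23.6 and 29.2 CPM in vehicle, 6.49 and 9.80 for WT bleo and 10.8 and 14.0 for Pear1-/- bleo. Of the 6, 1 was called higher and 4 lower in WT bleo than in WT vehicle, with or without WT vehicle replicate 2, where 10.5% of all genes were called higher and 23.5% lower. Endothelial markers (6 genes) summed to between 344 and 380 CPM in vehicle, 178 and 190 in WT bleo and 192 and 204 in Pear1-/- bleo. For pericyte and smooth muscle markers (7 genes) the ranges were 214 to 239, 82.9 to 86.1 and 119 to 129. For mesothelial markers (4 genes) they were 24.6 to 37.1, 8.02 to 9.59 and 13.0 to 15.3. Each of these sums was higher in Pear1-/- bleo than in WT bleo. In that comparison 0, 1 and 2 of these markers were called higher and 0 lower, against 6.26% and 8.76% of all genes. No marker was at or under 3 counts in all libraries of a group, except Gp6 in Pear1-/- bleo. In WT bleo the leukocyte sum was above the fibroblast sum (15774 to 15949 against 5729 to 5792 CPM), so a member's change need not be one in fibroblasts. The part of these shifts in the results below was not tested, and in such bulk samples fewer cells of a type and less RNA per cell cannot be told apart.

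Promoter windows were held for 7 of the 10 genes in the RefSeq table of GRCm38.p6, each 250 bases before to 50 bases after a transcription start. Those of Postn, Tnc and Tnxb are shown because periostin and tenascin-C RNA rose with bleo and tenascin-X RNA fell. They lie at chr3:54360857-54361156 on the plus strand, chr4:64046966-64047265 on the minus strand and chr17:34670285-34670584 on the plus strand. They are written 5′ to 3′ along the gene, and capitals mark matches to any of 4 motifs searched on both strands. The TATA box was searched as TATAAA. The TEAD motif was searched as CATTCC. The AP-1 motif was searched as TGANTCA. An E-box was searched as CAGCTG.
Postn: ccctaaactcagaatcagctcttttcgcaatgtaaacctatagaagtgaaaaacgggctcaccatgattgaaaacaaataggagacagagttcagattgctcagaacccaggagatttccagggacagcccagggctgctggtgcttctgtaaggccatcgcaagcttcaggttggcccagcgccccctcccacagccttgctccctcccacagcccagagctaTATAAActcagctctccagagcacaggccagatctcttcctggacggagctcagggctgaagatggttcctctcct
Tnc: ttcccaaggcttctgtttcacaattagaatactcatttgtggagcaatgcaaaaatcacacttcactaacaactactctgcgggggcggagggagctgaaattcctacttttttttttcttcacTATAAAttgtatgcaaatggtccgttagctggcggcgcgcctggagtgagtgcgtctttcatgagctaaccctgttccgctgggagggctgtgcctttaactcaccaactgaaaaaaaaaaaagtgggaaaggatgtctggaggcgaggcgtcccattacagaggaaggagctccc
Tnxb: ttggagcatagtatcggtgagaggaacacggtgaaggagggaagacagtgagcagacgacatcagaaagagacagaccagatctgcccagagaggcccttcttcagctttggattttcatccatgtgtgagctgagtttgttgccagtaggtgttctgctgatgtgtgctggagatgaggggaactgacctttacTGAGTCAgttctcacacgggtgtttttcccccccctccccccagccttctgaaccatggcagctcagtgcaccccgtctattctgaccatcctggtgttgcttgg
The match in Postn is TATAAA beginning 26 bases before the start, and that in Tnc is TATAAA beginning 126 bases before it. The window of Tnxb held neither TATAAA nor its reverse complement but had an AP-1 match beginning 55 bases before the start. Among the other windows, Thbs2 held TATAAA on the strand opposite to the gene, Sparc an E-box, Thbs4 a pair of overlapping TEAD matches, and Thbs3 none of the 4. Of 32851 windows of the same length, 13.6% held the TATA box, 14.7% the TEAD motif, 7.81% the AP-1 motif and 16.3% the E-box, so these matches describe the letters and mark no site of binding.

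In vehicle, the members spanned a wide range of levels. Per kb of exon, Sparc was highest at 585 ± 54.5 CPM (SD, n = 3) in WT vehicle, followed by Thbs1 at 322 ± 19.1. Fn1 stood at 24.9 ± 8.72, and Thbs3, Tnxb, Postn and Thbs2 lay between 9.03 and 13.2 CPM per kb. Tnc was at 4.31 ± 1.92, and Thbs4 (1.33 ± 0.41) and Comp (1.18 ± 0.42) were lowest and overlapped. Without WT vehicle replicate 2, the other libraries stood at 29.9 and 30.1 for Fn1, 5.59 and 5.25 for Tnc and 6.84 and 6.35 for Thbs2. With bleo the order had changed below the first places, and all 10 genes held the same rank in WT bleo and in Pear1-/- bleo. In Pear1-/- bleo, Sparc (1502 ± 14.5), Thbs1 (345 ± 4.12) and Fn1 (296 ± 3.89) were followed by Tnc (65.3 ± 1.34), Postn (54.3 ± 0.96) and Thbs2 (44.8 ± 0.56). Tnxb was down to 1.83 ± 0.23 CPM per kb in WT bleo and 1.18 ± 0.02 in Pear1-/- bleo. The 10 genes together took 0.440% to 0.510% of all counts for WT vehicle (0.509% to 0.510% without replicate 2) and 0.428% to 0.444% for Pear1-/- vehicle. With bleo they took 0.599% to 0.602% for WT and 1.26% to 1.27% for Pear1-/-.

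**Figure D1:**
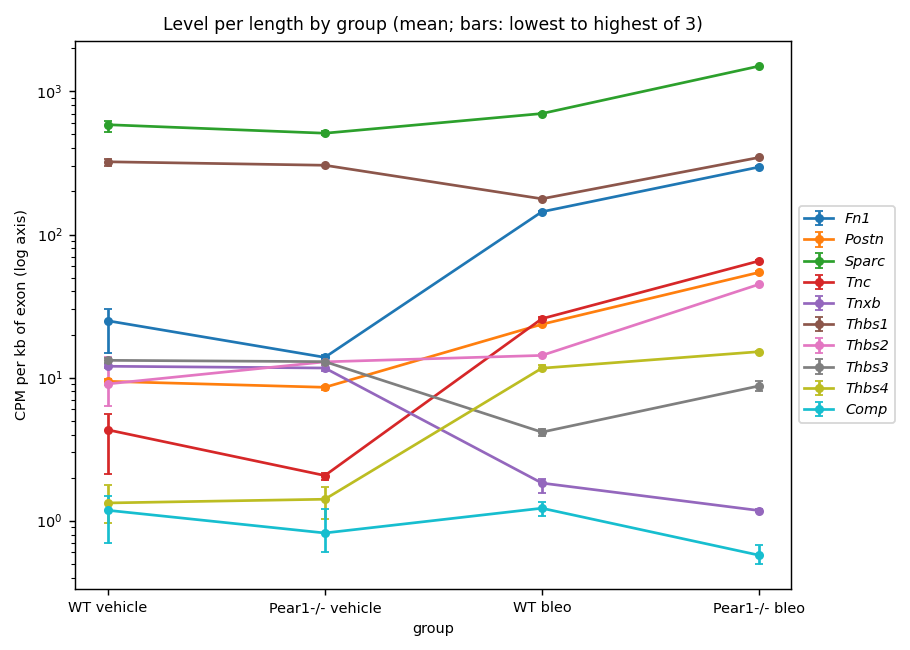
Mean level of each gene in CPM per kb of exon (log axis) in the 4 groups, with bars from the lowest to the highest of 3 libraries. Sparc lies on top in every group, Tnxb drops to 1.83 in WT bleo, and Tnc climbs from 4.31 to 25.8.

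The first question was how bleo changed the family in wild-type mice. In WT bleo, 4 members were called higher than in WT vehicle (Fn1, Postn, Tnc and Thbs4) and 2 were called lower (Tnxb and Thbs3), against 10.5% of all genes tested called higher and 23.5% called lower. The median log2 fold change of the 10 genes was 0.53, and that of all genes -0.07. Without WT vehicle replicate 2, Thbs2 was also called higher, against 11.4% of genes called higher and 33.7% lower. The log2 fold changes without it were 2.48 for Fn1, 2.47 for Tnc, 1.501 for Postn, 3.16 for Thbs4, -2.47 for Tnxb, -1.42 for Thbs3, -0.69 for Thbs1, 0.40 for Sparc and -0.0015 for Comp. With replicate 2 as the only WT vehicle library the same 6 were called (4 higher and 2 lower, against 11.2% and 19.95% of genes), and Thbs2 had a log2 fold change of -0.0018, so that its higher level in WT bleo rests on replicates 1 and 3. Scaled to the 12 fibroblast markers in place of all genes, which moved the median of all genes from -0.07 to 1.44, 7 members were called higher (Sparc at 1.86, Thbs2 at 2.21 and Comp at 1.67 were added) and 1 lower (Tnxb), against 64.6% and 8.30% of all genes.

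Fibronectin had 2838, 1607 and 2831 normalized counts in the 3 WT vehicle libraries (replicates 1, 2 and 3) and 15115, 14994 and 14874 in WT bleo. The groups did not overlap, and bleo was 6.23-fold higher (log2 fold change 2.64, SE 0.16, adjusted p = 9.28e-10). Tenascin-C had 353, 151 and 329 normalized counts in WT vehicle and 1831, 1766 and 1753 in WT bleo. Its lowest bleo library was above every vehicle library, and its log2 fold change was 2.70 (SE 0.20, adjusted p = 1.52e-08). Periostin had 678, 718 and 682 in WT vehicle and 1882, 1830 and 1768 in WT bleo, a 2.66-fold rise. Thrombospondin-4, best known from tendon and muscle, had 47.3, 29.4 and 33.2 in WT vehicle and 358, 336 and 328 in WT bleo. In the fit of all libraries it was the member with the largest fold, 9.45.

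Tenascin-X ran the opposite way to tenascin-C. It had 1193, 1398 and 1140 normalized counts in WT vehicle and 213, 170 and 214 in WT bleo, a 6.19-fold fall (log2 fold change -2.63, SE 0.11, adjusted p = 1.12e-11). The level of Tnc per that of Tnxb, both per length, was 0.36 ± 0.17 (SD, n = 3) in WT vehicle and 14.2 ± 1.81 in WT bleo, and it was 0.46 and 0.45 in WT vehicle replicates 1 and 3. Thrombospondin-3 fell as well, from 492, 615 and 515 in WT vehicle to 182, 167 and 186 in WT bleo. Its exons share 6.59% of their bases with Mtx1 on the opposite strand (82 to 196 counts), and whether the counting used strand is not given in the sources used here. Scaled to the fibroblast markers, the fall of Thbs3 was no longer called (log2 fold change -0.08), but the median gene was at 1.44 on that scale. The lost call thus goes with a shift of all genes.

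Thrombospondin-1 and SPARC, the most abundant members, moved less. Thbs1 had 16258, 16888 and 16480 normalized counts in WT vehicle and 9531, 9739 and 9533 in WT bleo, and fell 1.71-fold (adjusted p = 1.28e-09). Scaled to the fibroblast markers its log2 fold change was 0.74, below the 1.44 of the median gene on that scale. That change of sign goes with a shift of all genes. Sparc rose 1.27-fold (adjusted p = 1.39e-05), from 19214, 18323 and 18582 to 23586, 23442 and 23799. Thrombospondin-2 had 389, 901 and 358 in WT vehicle and 878, 889 and 904 in WT bleo, so that WT vehicle replicate 2 alone overlapped the bleo libraries. Its log2 fold change was 0.70 (SE 0.23, adjusted p = 0.0138), and 1.33 (SE 0.07, adjusted p = 2.08e-20) without that library. COMP, a cartilage protein, had between 19.3 and 35.8 normalized counts in all 6 libraries and a log2 fold change of 0.17 (adjusted p = 0.638).

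**Figure D2:**
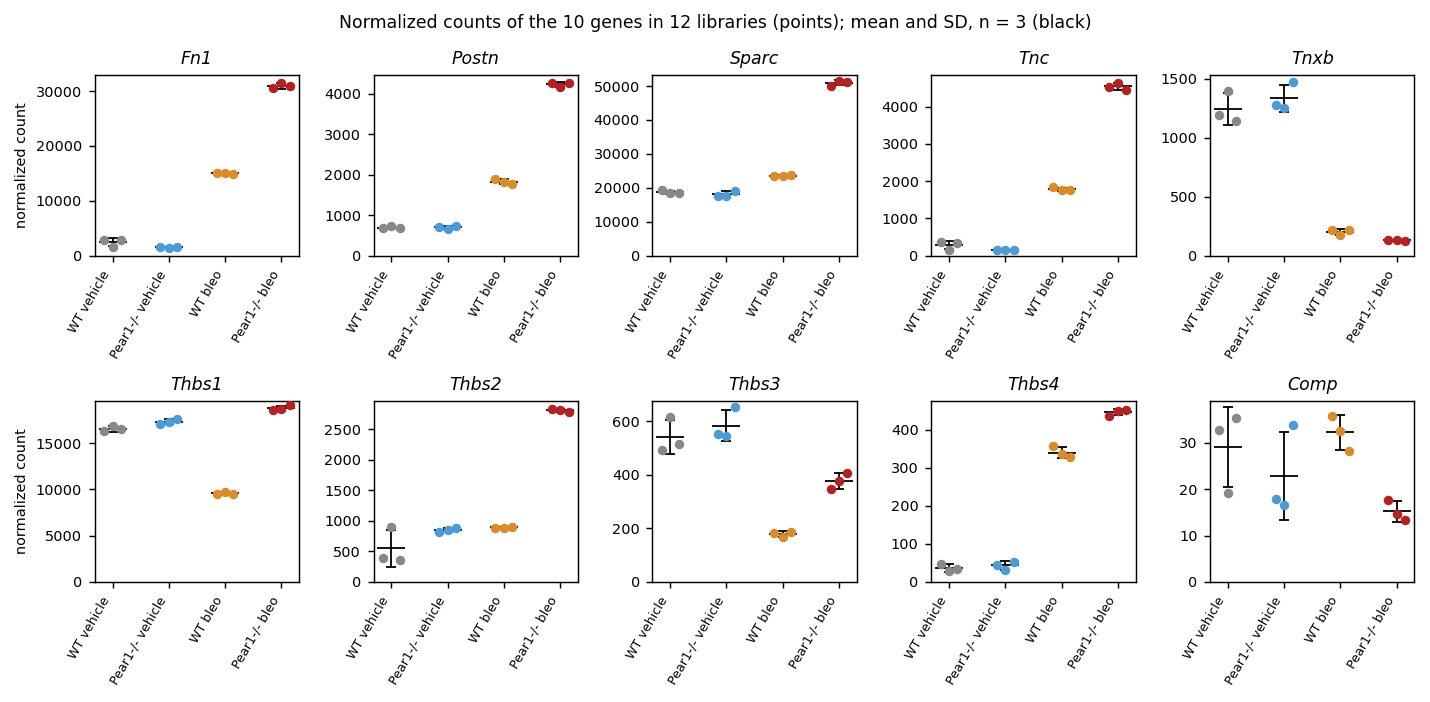
Normalized counts of each gene (vertical axes from 0, scaled gene by gene) in the 12 libraries, with the group mean and SD in black. Fn1, Tnc, Postn, Sparc and Thbs2 are highest in Pear1-/- bleo, Tnxb is lowest there, and Thbs1 dips in WT bleo alone (9531 to 9739 against 16258 or more elsewhere).

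In the libraries labelled Pear1-/-, bleo was compared with vehicle in the same way, and 6 members were called higher (Fn1, Postn, Sparc, Tnc, Thbs2 and Thbs4) and 1 lower (Tnxb), against 8.38% and 19.4% of all genes. The median log2 fold change of the 10 was 1.62, and that of all genes -0.05. Tnc had 153, 138 and 159 normalized counts in Pear1-/- vehicle and 4537, 4640 and 4457 in Pear1-/- bleo, a 30.3-fold rise (log2 fold change 4.92, SE 0.22, adjusted p = 6.53e-11). Fn1 rose 20.5-fold, from 1482, 1456 and 1604 to 30504.5, 31531 and 30874. Postn rose 6.10-fold, Thbs2 3.34-fold and Sparc 2.82-fold. None of the bleo libraries of these genes overlapped a vehicle library.

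Thbs4 rose 10.4-fold in the libraries labelled Pear1-/-, from 45.5, 31.5 and 53.5 to 437, 450 and 453 normalized counts. Tnxb fell 10.3-fold, from 1277, 1252 and 1469 to 128, 132 and 127, and the level of Tnc per Tnxb, per length, went from 0.18 ± 0.01 to 55.5 ± 0.26 (SD, n = 3). Thbs1 changed little, with 17096, 17234 and 17590.0 in vehicle and 18579, 18668 and 19091 in bleo (log2 fold change 0.12, adjusted p = 0.0326). Scaled to the fibroblast markers, Thbs1 was called higher at 1.56 where the median gene had 1.39, and the members called were then 7 higher and 1 lower, against 66.0% and 6.97% of all genes. Thbs3 fell 1.54-fold (adjusted p = 5.6e-05), although on that scaling its log2 fold change was 0.82, under the median gene. The fold change of Comp, -0.55 on the log2 scale, did not pass (adjusted p = 0.162).

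Within bleo, the libraries labelled Pear1-/- were set against WT bleo to ask how the genotype bore on the injured lung. Of the 10 genes, 6 were called higher in Pear1-/- bleo (Fn1, Postn, Sparc, Tnc, Thbs2 and Thbs3) and 1 lower (Comp), against 6.26% and 8.76% of all genes. The median log2 fold change was 1.05, and that of all genes -0.01. The difference was widest for Thbs2, at 2826, 2821 and 2782 normalized counts against 878, 889 and 904 (3.13-fold, log2 fold change 1.65, SE 0.23, adjusted p = 2.79e-05). Tnc was 2.53-fold, Postn 2.30-fold, Sparc 2.14-fold, Thbs3 2.09-fold and Fn1 2.05-fold higher. For each of these genes the lowest Pear1-/- library lay above the highest WT library.

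Fn1 and Thbs3 were close to the threshold of fold 2, and scaled to the fibroblast markers their log2 fold changes of 0.95 and 0.98 were no longer called. Thbs1 was 1.94-fold higher (adjusted p = 6.53e-10) and Thbs4 1.30-fold higher (adjusted p = 0.0108), and Tnxb was 1.56-fold lower (adjusted p = 0.000321), all under the fold of 2. Comp had 17.8, 14.6 and 13.3 normalized counts in Pear1-/- bleo and 35.8, 32.6 and 28.3 in WT bleo (log2 fold change -1.09, SE 0.32, adjusted p = 0.0117), from 14 to 39 reads a library. Pdgfra, the gene of the sorting antigen, was itself 1.74-fold higher in Pear1-/- bleo and Ptprc, the gene of CD45, 2.28-fold lower. Per count of Pdgfra, Fn1 stood at 10.7 to 11.2 in WT bleo and 12.7 to 13.3 in Pear1-/- bleo, Sparc at 17.1 to 17.5 and 20.8 to 21.7, and Thbs2 at 0.65 to 0.66 and 1.16 to 1.19 (lowest to highest, n = 3). On that ratio 7 members were higher in Pear1-/- bleo without overlap (also Postn, Tnc, Thbs1 and Thbs3) and 3 were lower (Tnxb, Thbs4 and Comp), where 5.62% of all genes tested were higher and 74.7% lower without overlap. Thbs4 was at 0.24 to 0.27 per count of Pdgfra in WT bleo and 0.18 to 0.19 in Pear1-/- bleo. Dividing by Pdgfra lowered every gene in Pear1-/- bleo alike relative to WT bleo, so this change of direction is no result about Thbs4.

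The make-up of the thrombospondins changed along with their levels. Of the 5 thrombospondin genes per length, Thbs1 made up 91.1% to 93.8% for WT vehicle and 91.0% to 91.9% for Pear1-/- vehicle (lowest to highest, n = 3). Without replicate 2 the WT vehicle shares were 93.6% and 93.8% for Thbs1, 1.94% and 1.77% for Thbs2 and 0.50% and 0.35% for Thbs4. With bleo it made up 84.7% to 85.4% for WT and 83.1% to 83.4% for Pear1-/-. The mean share of Thbs2 was 2.64% ± 1.37 and 3.87% ± 0.07 in these vehicle groups and 6.84% ± 0.13 and 10.8% ± 0.23 in the bleo groups (SD, n = 3). Thbs4 held 0.38% ± 0.11 and 0.42% ± 0.10 in the vehicle groups, and its share was larger in WT bleo (5.57% ± 0.27) than in Pear1-/- bleo (3.66% ± 0.04).

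**Figure D3:**
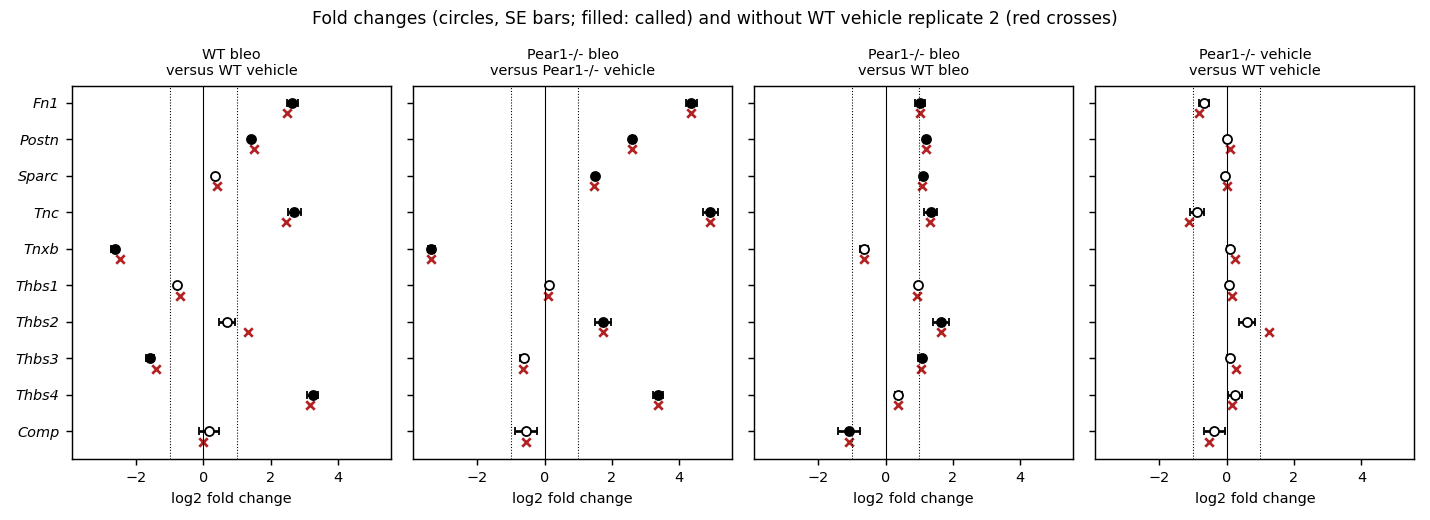
Log2 fold changes of the 10 genes in 4 comparisons, with SE bars, filled where called, and red crosses for the fit without WT vehicle replicate 2. Dotted lines mark a fold of 2. The crosses leave the circles most clearly for Thbs2 in the comparisons with WT vehicle (0.70 against 1.33 in bleo, 0.61 against 1.24 in vehicle).

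Between the vehicle groups, 0 of the 10 genes were called by edgeR in either direction, against 0.0344% of all genes called higher and 2.33% lower in Pear1-/- vehicle. At an unadjusted p under 0.05 there were 5508 genes in the whole table. Fn1 (log2 fold change -0.69, adjusted p = 0.0388) and Tnc (-0.88, adjusted p = 0.0415) passed the adjusted p but not the fold of 2, and with edgeR's robust option their adjusted p were 0.0512 and 0.0671. The other 8 did not pass the adjusted p. WT vehicle replicate 2 decided this comparison. In Fn1, Tnc and Thbs2 it lay with the Pear1-/- vehicle libraries and not with its own group (for Thbs2, 901 against 389 and 358 in WT vehicle and 813, 841 and 876 in Pear1-/- vehicle). Without it, Tnc was called lower (log2 fold change -1.12, SE 0.09, adjusted p = 1.35e-13) and Thbs2 higher (1.24, SE 0.07, adjusted p = 1.85e-18) in Pear1-/- vehicle, Fn1 had a log2 fold change of -0.84, and 2.87% of genes were called higher and 21.3% lower. In that fit Thbs1 (0.15, adjusted p = 0.00423), Thbs3 (0.28, adjusted p = 0.00561) and Tnxb (0.26, adjusted p = 0.00232) also passed the adjusted p under the fold of 2, and Postn, Sparc, Thbs4 and Comp did not pass. With replicate 2 as the only WT vehicle library, 0 members and 1 gene in all were called by edgeR (637 genes at an unadjusted p under 0.05), and Fn1, Tnc and Thbs2 had log2 fold changes of -0.09, -0.01 and -0.10.

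**Figure D4:**
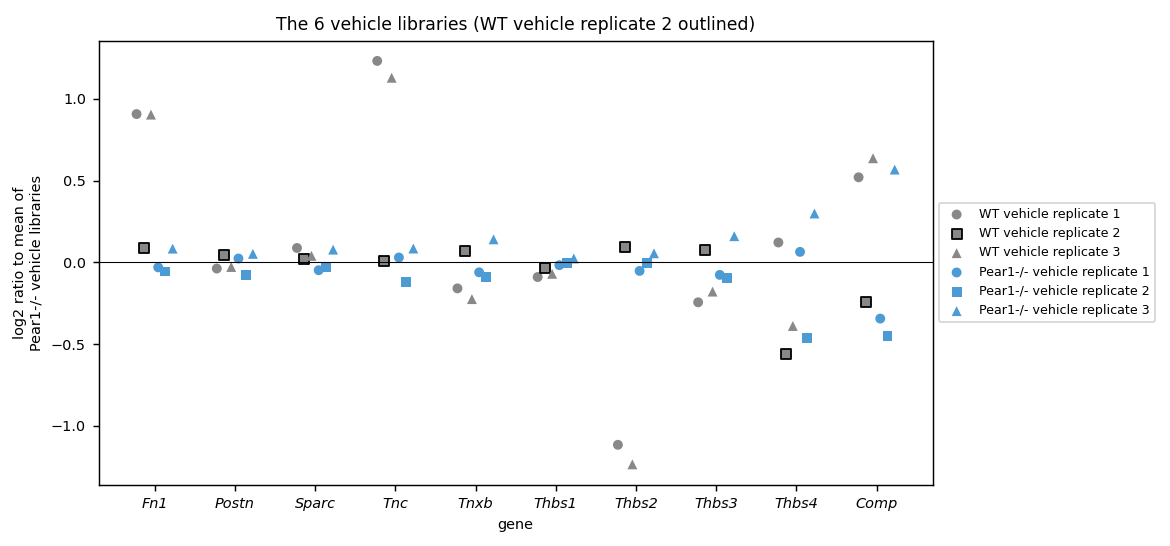
Log2 ratio of each vehicle library to the mean of the 3 Pear1-/- vehicle libraries, gene by gene, with WT vehicle replicate 2 outlined. For Fn1, Tnc and Thbs2 the outlined square lies within 0.10 of 0 while WT vehicle replicates 1 and 3 lie at least 0.90 away from it.

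The last comparison asked whether the change with bleo differed between the genotypes, as the difference of the log2 fold changes (Pear1-/- minus WT). It was called higher for 5 members (Fn1, Postn, Sparc, Tnc and Thbs2) and lower for none, against 8.61% and 7.06% of all genes. The median over the 10 was 1.001 and over all genes -0.0012. It was 2.22 for Tnc (SE 0.28, adjusted p = 2.42e-05), 1.72 for Fn1 (SE 0.21), 1.20 for Postn (SE 0.09) and 1.15 for Sparc (SE 0.07). For Thbs2 it was 1.04 (SE 0.32, adjusted p = 0.0197), but the call was lost in 16 of 22 other settings and without WT vehicle replicate 2 the value was 0.39. In that fit the other 4 were still called, at 2.44 for Tnc, 1.86 for Fn1, 1.09 for Postn and 1.08 for Sparc, against 12.1% of genes called higher and 9.83% lower. With replicate 2 as the only WT vehicle library 6 were called higher (Thbs3 was added, at 1.16) and 1 lower (Comp, at -1.29), against 5.79% and 6.80% of genes, with 1.37 for Tnc, 1.14 for Fn1 and 1.76 for Thbs2. Thbs4 (0.13, SE 0.23, adjusted p = 0.684) and Comp (-0.72, SE 0.45, adjusted p = 0.229) did not pass.

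Genes around the family were counted from lists of their receptors, relatives, matrix partners and inducing signals. The shares of all genes called higher and lower, to be read beside each count, were 10.5% and 23.5% in WT bleo, 8.38% and 19.4% in Pear1-/- bleo against its vehicle and 6.26% and 8.76% in Pear1-/- bleo against WT bleo. They were 8.61% and 7.06% for the interaction and 0.0344% and 2.33% between the vehicle groups. Without WT vehicle replicate 2 they were 11.4% and 33.7% in WT bleo, 12.1% and 9.83% for the interaction and 2.87% and 21.3% between the vehicle groups. Among 16 receptors, WT bleo had 1 called higher and 2 lower than WT vehicle, Pear1-/- bleo had 1 and 1 against its vehicle, and Pear1-/- bleo had 0 and 2 against WT bleo. The interaction was called higher for 3 and lower for 3, and between the vehicle groups 1 receptor was called lower in the libraries labelled Pear1-/-. Without WT vehicle replicate 2, WT bleo had 2 higher and 3 lower, and the interaction and vehicle counts were the same numbers. In the fit of all libraries the receptors' counts in WT bleo and in Pear1-/- bleo against its vehicle lay at or under the shares of all genes. Itgb5, an integrin subunit that pairs with αv, rose from 345 ± 30.8 to 1250.0 ± 11.95 normalized counts with bleo in WT and stood at 537 ± 24.8 in Pear1-/- bleo. Itga8, a fibronectin and tenascin receptor subunit, fell from 3306 ± 882 to 606 ± 59.7 in WT and went from 2109 ± 225 to 790.2 ± 8.46 in Pear1-/- libraries. WT vehicle replicate 2 was at 2288 and the other 2 at 3820 and 3810. Itga5, the main fibronectin receptor subunit, rose in Pear1-/- bleo (829 ± 88.8 to 1979.7 ± 49.8) and, by less, in WT bleo (728 ± 75.9 to 1084 ± 40.0). Its WT vehicle replicate 2 was at 816 and the other 2 at 684 and 685. Itga9, which binds tenascin-C, was lower in Pear1-/- bleo than in WT bleo (119 ± 11.1 against 294 ± 23.1).

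Of 17 relatives, 14 were tested, with 2 called higher and 7 lower in WT bleo, 5 and 5 in Pear1-/- bleo against its vehicle, and 5 and 1 in Pear1-/- bleo against WT bleo. The interaction was called higher for 5 and lower for 1, and without WT vehicle replicate 2 WT bleo had 2 higher and 8 lower of 15 tested, the interaction 5 and 2 and the vehicle comparison 0 and 2 in place of 0 and 0. Spp1, which encodes osteopontin and is also abundant in macrophages, went from 873 ± 97.0 to 27776 ± 429 normalized counts in WT and reached 87909 ± 1699 in Pear1-/- bleo. Tnn, tenascin-W, had 52.3 ± 7.27 normalized counts for WT vehicle, 45.8 ± 16.05 for Pear1-/- vehicle and 36.3 ± 2.70 for WT bleo, but 838 ± 30.1 for Pear1-/- bleo (log2 fold change against WT bleo 4.51, SE 0.15, adjusted p = 2.91e-11). Smoc1 and Smoc2, relatives of SPARC, fell in both genotypes, with log2 fold changes of -2.88 and -2.05 for WT and of -3.08 and -1.81 for libraries labelled Pear1-/-.

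The 15 matrix partners and processing enzymes had 0 called higher and 4 lower in WT bleo, 8 and 3 in Pear1-/- bleo against its vehicle, and 7 and 0 in Pear1-/- bleo against WT bleo, with median log2 fold changes of -0.36, 1.01 and 0.98 where those of all genes were -0.07, -0.05 and -0.01. The interaction was called higher for 8 and lower for none. Without WT vehicle replicate 2 the counts were 0 and 4 in WT bleo, 7 and 2 for the interaction and 1 and 1 between the vehicle groups, in place of 0 and 0. Lox, which cross-links collagen, had 1397 ± 128 normalized counts for WT vehicle and 1595 ± 37.2 for WT bleo, but 5733 ± 174 for Pear1-/- bleo. Fbln1, a fibronectin-binding fibulin, fell from 7384 ± 1176 to 1855 ± 12.3 in WT and to 1208 ± 27.0 in Pear1-/- bleo, with WT vehicle replicate 2 at 8719 and the other 2 at 6930 and 6504. Of 15 inducing signals, 14 were tested, with 1 called higher and 3 lower in WT bleo, 2 and 1 in Pear1-/- bleo against its vehicle, and 2 and 2 in Pear1-/- bleo against WT bleo. The interaction was called higher for 2 and lower for 1, and without WT vehicle replicate 2 WT bleo had 2 higher and 3 lower and the interaction 2 and 2, with 0 called between the vehicle groups either way. In WT bleo the counts of the full fit are near the shares of all genes. Tgfbr1, a TGFβ receptor, rose to 2444 ± 41.0 in WT bleo from 633 ± 18.5 and stood at 1052 ± 41.2 in Pear1-/- bleo, whereas Ltbp1, which stores latent TGFβ in the matrix, fell from 3888 ± 79.2 to 1491 ± 18.9 in WT and had 3874 ± 219 for Pear1-/- vehicle and 3435 ± 4.68 for Pear1-/- bleo.

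The gene most like each member over the 12 libraries was sought among 10445 genes outside the family, by Pearson's r of log2 CPM. Within the family, Fn1 and Tnc were more alike (r = 0.999) than either was to any of these. The libraries share treatment and differ in marker levels, so r is a description. Col1a1, the main chain of type I collagen, was most like Sparc (r = 0.998), Kif26b most like Fn1 (0.996), Saa3 most like Tnc (0.997), Lpp most like Postn (0.997), Zbtb20 most like Tnxb (0.997), Nedd4 most like Thbs1 (0.994), Pebp1 most like Thbs2 (0.995) and Cyp4f16 most like Thbs4 (0.993). Thbs3 was matched best by an immunoglobulin gene, Igkv1-117 (0.991), and Comp, with its few reads, by Fasn (0.927).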

How the data were processed

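RNA-seq was made from sorted Cd140a+ lung cells in 12 libraries, with SMART-Seq v4 full-length cDNA. Per the paper's methods reads were aligned with HISAT2 to GRCm38 and mapped to a mouse reference transcriptome of that build. The counting program and the annotation release are not given in the sources used here. The authors deposited raw counts per gene and a second table of normalized signal, which equalled count divided by 1 size factor per library in 100% of genes. Libraries were grouped by their labels. Counts were tested with edgeR 4.0.16 (R 4.3.3, TMM, quasi-likelihood test, filterByExpr by group, 1 mean per group). Counting intervals and floors (3 counts) cover counting error only, and no Comp count was under 14.

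After the default fit was seen, 5 option sets of the quasi-likelihood fit had been run, because an earlier analysis of these data gave other gene counts. The default is reported, as the design had written it, and the others, including the one that matched the earlier counts, are alternatives chosen after seeing the data. So are the fit without WT vehicle replicate 2 in comparisons that do not hold WT vehicle and the fit with it as the only WT vehicle library. DESeq2 1.42.0, limma 3.58.1 on log2(normalized count + 1), no filter, other scalings, a replicate block and each library left out were the other settings.

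The members and lists were chosen with earlier results of these data known. Named genes are all 10 members, Pear1, Pdgfra, Ptprc, the most alike gene of each member and, per list and comparison, up to 3 called genes each way by fold with a log2 CPM averaging 3 or more and groups that do not overlap. Col3a1, Col14a1, Pdgfrb, Lyz2, Chil3, S100a8, Cdh1, Pf4, Gp6 and Mtx1 were named outside that rule after their values were seen. Gene positions and exon lengths came from GENCODE M21 (GRCm38), and promoter sequences from RefSeq (GRCm38.p6).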

Additional observations from a re-analysis of the deposited data

Results flagged for a closer look

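In 8 of the 10 genes the change with bleo differed between the genotypes as labelled, by edgeR's test of the difference itself (Pear1-/- minus WT, log2). Of all genes, 17.9% passed its adjusted p with a higher and 19.1% with a lower value, whatever the fold, against 7 and 1 of the members. The difference was 1.72 for Fn1 (adjusted p = 1.68e-05), 1.20 for Postn (adjusted p = 2.36e-07), 1.15 for Sparc (adjusted p = 2.07e-08) and 2.22 for Tnc (adjusted p = 2.42e-05). For Tnxb it was -0.74 (adjusted p = 0.00136), a deeper fall in the libraries labelled Pear1-/-. It was 0.90 for Thbs1 (adjusted p = 1.55e-07), 1.04 for Thbs2 (adjusted p = 0.0197) and 0.97 for Thbs3 (adjusted p = 0.000105). The value of Thbs2 was 0.39 without WT vehicle replicate 2 and its adjusted p 0.0843 with edgeR's robust option. Without that library the others were 1.86 for Fn1, 1.09 for Postn, 1.08 for Sparc, 2.44 for Tnc, -0.91 for Tnxb, 0.80 for Thbs1 and 0.78 for Thbs3. With it as the only WT vehicle library the values were 1.14 for Fn1, 1.37 for Tnc and 1.76 for Thbs2. Pdgfra (0.94) and Ptprc (-1.40) differed in the same test, and their part in these differences was not tested.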

How the results depend on the processing

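The number of members called was 6, 7, 7, 0 and 5 in the 5 comparisons (WT bleo, Pear1-/- bleo, between bleo groups, between vehicle groups, interaction). With libraries left out 1 at a time it ran from 6 to 7, 7 to 7, 7 to 7, 0 to 2 and 4 to 6, and the 2 came without WT vehicle replicate 2. Over all genes, 5910, 4847, 2617, 411 and 2729 were called, and with libraries left out from 5802 to 9192, 5310 to 6685, 2372 to 3267, 0 to 4939 and 2430 to 4468. Without a filter on low counts 13669, 8019 and 2990 genes were called in WT bleo, Pear1-/- bleo and vehicle, scaled to fibroblast markers 12697 and 12715 in WT bleo and Pear1-/- bleo (88.6% and 90.5% of them higher, against 30.9% and 30.1% in the reported fit), and by DESeq2's Wald test 10085 in WT bleo. Between the vehicle groups limma called 28 and the fit of only the groups compared 0. The vehicle count was 578 with a robust quasi-likelihood fit, 584 with robust dispersion and the bias-adjusted fit and 411 with robust dispersion alone, and these options changed no member's call except that of Thbs2 in the interaction (adjusted p = 0.0843 with the robust fit), although under the robust fit Fn1 and Tnc in vehicle no longer passed the adjusted p. The causes were not tested.

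Of 920 member values under alternatives, 868 kept direction and call, 19 lost a call, 11 gained one and 22 changed sign. Scaling to fibroblast markers moved the median of all genes from -0.07 to 1.44 in WT bleo and from -0.05 to 1.39 in Pear1-/- bleo, so the sign changes there go with a shift of all genes and are no result about the member. They were Thbs1 in WT bleo (0.74), Thbs3 (0.82) and Comp (0.88) in Pear1-/- bleo and Postn in vehicle (-0.018). Postn in vehicle was also -0.0062 with DESeq2 size factors, -0.0029 in the fit of only the groups compared, and with libraries left out it ran from -0.014 to 0.10. Sparc in vehicle was 0.043 with no filter, and with libraries left out it ran from -0.056 to 0.022. With libraries left out, Comp in WT bleo ran from -0.0015 (without WT vehicle replicate 2) to 0.35, and the interaction of Thbs4 from -0.12 (without Pear1-/- vehicle replicate 2) to 0.25. With WT vehicle replicate 2 as the only WT vehicle library, a setting chosen after seeing the data, 1 gene was called between the vehicle groups, and signs changed for Thbs2 in WT bleo (-0.0018), for Postn (-0.048), Tnxb (-0.072), Thbs2 (-0.097), Thbs3 (-0.081) and Comp (0.21) in vehicle and for the interaction of Thbs4 (-0.15). Same-numbered libraries did not deviate together (r from -0.16 to 0.10 over 18 pairs), and with the replicate block 5887, 4837, 2582, 349 and 2645 genes and 6, 7, 7, 0 and 4 members were called.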
